A study of Mus musculus with 78 samples.

Results

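Expression in mouse liver was followed for 8 genes of the erythroid lineage, namely Slc4a1, Epb42, Ermap, Car2, Car1, Alas2, Klf1 and Ahsp. The genes were taken by symbol, each as the probe set that the array annotation pairs with that symbol alone, and where a gene has several such probe sets, as the one with the highest mean over the 78 arrays. Of the 8 genes, 7 were measured, each by 1 probe set, among 19938 genes with a probe set of their own. Ahsp was not analysed here.

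The liver is the main organ of red blood cell formation before birth, and in mice erythroid cells remain in it for some time after birth while the bone marrow and the spleen take over. Erythroblasts build a membrane skeleton around the anion exchanger band 3, load the cell with haemoglobin and carbonic anhydrase, and make haem through an erythroid form of the first enzyme of the pathway. Transcription factors of the GATA and KLF families switch these genes on together. Bulk liver RNA holds hepatocytes in large excess, so an erythroid transcript is a small part of what was hybridised.

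The age series compared Npc1-/- with Npc1+/+ female littermates of strain BALB/cNctr-Npc1m1N/J, bred from heterozygous parents, at 6 ages spaced evenly between 1 week and 11 weeks, with 4 mice in each of the 12 groups. Npc1 encodes a lysosomal membrane protein that exports cholesterol, and Npc1-/- mice, which carry the mutant allele in every cell from conception, model Niemann-Pick disease type C1. The labels call Npc1-/- mice of pre-symptomatic age at 1 and 3 weeks and of post-symptomatic age from 5 weeks on. Pups were weaned at 3 weeks. A second set held 12-week-old BALB/cJ females, all Npc1+/+, in 6 groups of 5: given an antisense oligo against Npc1 together with N-acetyl-cysteine (NAC, an antioxidant), a control oligo with NAC, the Npc1 oligo alone, the control oligo alone, fasted overnight, or untreated. Oligos, and NAC where given, were administered during the 4 weeks up to collection at 12 weeks. The labels call mice given the Npc1 oligo symptomatic. Each array carried the liver RNA of 1 mouse, and values are log2 expression as deposited. A level under 5.54, the median of all values in the table, is called low here.

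Npc1 itself was lower in every Npc1-/- mouse than in every Npc1+/+ littermate at each of the 6 ages, with differences of -1.11 to -1.72 on the log2 scale. In the 12-week set the difference of Npc1 between the Npc1 oligo and the control oligo was -2.97 ± 0.15 without NAC and -2.08 ± 0.15 with NAC (SE). In the control oligo + NAC group Npc1 was also lower than with the control oligo alone (-1.03 ± 0.15, adjusted p = 6.05e-05), at 8.77 to 9.96 against 9.98 to 10.4 per mouse. The hepatocyte transcripts Alb, Apoa1 and Ttr lay between 12.9 and 13.8 on all 78 arrays. Of transcripts that define erythroid cells, Rhag, the Rh-associated glycoprotein, ranged between 2.95 and 7.27 and Gata1, the lineage transcription factor, between 4.80 and 6.07, both with their highest group mean in 1-week Npc1-/- liver. Transcripts of other organs stood out in some mice. The mean level of 12 pancreas genes was 8.37 and 8.36 in Npc1+/+ mice 1 and 2 of 3 weeks, against 4.71 to 4.99 in the other 3-week mice. It was 6.40 in Npc1-/- mouse 2 of 1 week, against 4.90 to 5.68 in the other mice of that age. The mean level of 12 skeletal muscle genes was 8.95 in Npc1-/- mouse 3 of 1 week, against 5.28 to 5.43 in the other Npc1-/- mice of that age. Where leaving out the first 2 of these mice, or the last, changed a member's call, the value without them stands beside it. No member's call for the change between 1 and 3 weeks within a genotype was lost or gained without them. List counts without them are given for some lists only.

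Promoters show the sequence context in which erythroid factors could act, and the 250 bases before the transcription start are printed for the 4 of 8 members with an entry in RefSeq's promoters for GRCm38.p6, 5′ to 3′ on the gene's strand. Capitals mark matches to a GATA motif (the letters AGATAA or its variant AGATAG, and likewise TGATAA or its variant TGATAG) or to a CACCC-type motif of the kind that KLF1 binds (the letters CCACACCC or its variant CCACGCCC, and likewise CCCCACCC or its variant CCCCGCCC), searched on both strands. Alas2, the erythroid haem enzyme, lies at chrX:150547167-150547416 (+), Epb42, the membrane skeleton protein 4.2, at chr2:121036878-121037127 (-), Klf1, the erythroid transcription factor, at chr8:84901732-84901981 (+), and Ermap, an erythroblast surface protein, at chr4:119189996-119190245 (-).
Alas2: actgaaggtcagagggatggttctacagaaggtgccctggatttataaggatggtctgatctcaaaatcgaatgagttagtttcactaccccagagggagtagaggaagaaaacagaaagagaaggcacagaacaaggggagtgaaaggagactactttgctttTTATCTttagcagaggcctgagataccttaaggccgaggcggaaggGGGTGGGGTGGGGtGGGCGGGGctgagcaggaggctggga
Epb42: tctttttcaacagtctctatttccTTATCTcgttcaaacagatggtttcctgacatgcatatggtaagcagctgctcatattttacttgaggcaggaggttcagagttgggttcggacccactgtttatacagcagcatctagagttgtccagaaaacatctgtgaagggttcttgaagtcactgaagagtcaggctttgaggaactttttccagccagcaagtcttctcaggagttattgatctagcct
Klf1: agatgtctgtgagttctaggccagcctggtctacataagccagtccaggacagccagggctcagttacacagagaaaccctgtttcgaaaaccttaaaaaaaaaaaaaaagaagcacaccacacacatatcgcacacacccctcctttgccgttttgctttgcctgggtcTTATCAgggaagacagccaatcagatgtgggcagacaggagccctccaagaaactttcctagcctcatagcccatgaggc
Ermap: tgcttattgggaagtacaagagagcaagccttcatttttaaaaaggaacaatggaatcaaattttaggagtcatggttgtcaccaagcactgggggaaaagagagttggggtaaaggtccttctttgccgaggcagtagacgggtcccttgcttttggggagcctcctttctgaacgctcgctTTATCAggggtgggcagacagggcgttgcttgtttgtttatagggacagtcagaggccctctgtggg
Each of the 4 windows held 1 GATA match, read on the opposite strand. The match was AGATAA at 86 to 81 bases before the start in Alas2 and at 226 to 221 bases in Epb42, and TGATAA at 80 to 75 bases in Klf1 and at 67 to 62 bases in Ermap. Only the Alas2 window held CACCC-type matches among these 4: CCCCACCC at 40 to 33 and at 35 to 28 bases before the start, which overlap, and CCCCGCCC at 26 to 19 bases. Of all 32851 promoter windows of that length, 26.5% held a GATA match, 27.4% a CACCC-type match and 4.3% both. A match is a stretch of letters and no measure of binding.

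Most of the erythroid genes were high in 1-week liver and lower by 5 weeks, and in Npc1-/- liver several of them were higher at 3 weeks than in littermates. At 1 week 2 of the 7 genes were higher in Npc1-/- liver and none was lower, where 5.69% of the 12638 genes tested passed the threshold (limma, adjusted p under 0.05), 2.91% as higher and 2.78% as lower. At 3 weeks 4 were higher and 1 was lower (15.7% of all genes passed, 8.9% higher and 6.84% lower). From 7 weeks the picture differed: Alas2 and Car1 were lower in Npc1-/- liver at 7, 9 and 11 weeks, while Slc4a1, Epb42 and Ermap did not pass at any of those ages. At 5 weeks the counts were 1 higher and 1 lower (of all genes 12.6% passed, 9.69% higher and 2.88% lower). At 7 weeks 0 were higher and 2 lower (25.3% of all genes, 14.3% higher and 11% lower). At 9 weeks 1 was higher and 3 were lower (33.2%, with 17.6% higher and 15.5% lower), a count to which Klf1 contributed, and at 11 weeks 1 was higher and 2 were lower (39.3%, with 18.8% higher and 20.5% lower). From 7 weeks the members' shares thus stand beside a large background. In a homogenised organ, fewer cells that make a transcript and less of it per cell cannot be told apart. Whether erythroid or other cells made the Alas2 and Car1 transcripts that differed was not tested.

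Slc4a1 encodes band 3, the chloride-bicarbonate exchanger of the red cell membrane. Its level in 1-week liver was 9.77, 9.63, 10.45 and 9.63 in Npc1-/- mice and 9.34, 8.90, 9.52 and 10.12 in Npc1+/+ mice. The groups overlapped, and the difference of 0.40 ± 0.21 (SE) did not pass the threshold (adjusted p = 0.305). At 3 weeks it was 8.39, 8.03, 7.63 and 8.76 in Npc1-/- mice and 7.27, 6.82, 6.73 and 7.08 in Npc1+/+ mice. Every Npc1-/- mouse of that age lay above every littermate. The transcript was higher in Npc1-/- liver by 1.23 ± 0.21, or 2.34-fold (adjusted p = 2.63e-05), and by 1.30 without the 2 mice that carried pancreas transcripts (adjusted p = 0.000541). At 5 weeks it averaged 6.79 ± 0.35 in Npc1-/- mice and 6.36 ± 0.30 in Npc1+/+ mice (SD, n = 4 each), with overlap (adjusted p = 0.191). From 7 to 11 weeks the group means stayed between 6.11 and 6.20 in Npc1-/- liver and between 6.08 and 6.21 in Npc1+/+ liver.

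**Figure D1:**
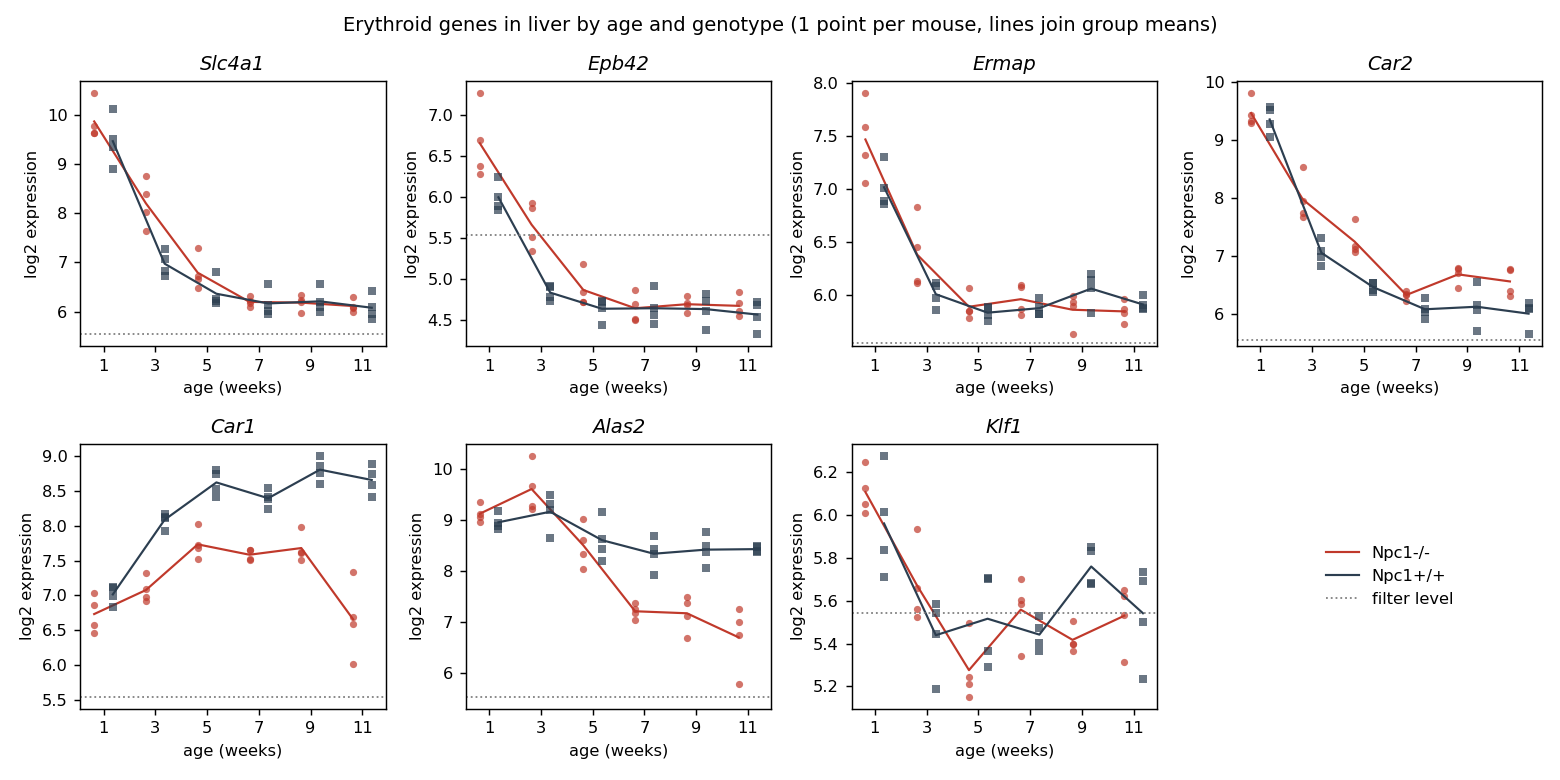
Log2 expression of the 7 measured erythroid genes (y axis, a scale per panel) at 1 to 11 weeks of age (x axis), with Npc1-/- mice as circles left of Npc1+/+ mice as squares, 1 point per mouse, lines through the group means and a dotted line at 5.54. Slc4a1, Epb42, Ermap and Car2 run down steeply to 5 weeks, Car1 runs up in Npc1+/+ mice, and Alas2 parts by genotype from 7 weeks.

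Epb42 encodes protein 4.2, which ties band 3 to the membrane skeleton. In 1-week liver its level was 6.70, 6.38, 7.27 and 6.28 in Npc1-/- mice and 5.85, 6.00, 5.89 and 6.25 in Npc1+/+ mice. The groups did not overlap, although the lowest Npc1-/- mouse lay close to the highest Npc1+/+ mouse. The difference was 0.66 ± 0.14, or 1.58-fold (adjusted p = 0.00272, and adjusted p = 0.0504 with only these groups in the fit). Without Npc1-/- mouse 3, which carried the muscle transcripts and was the highest of its group for Slc4a1, Epb42, Ermap, Car2, Alas2 and Klf1, the difference was 0.46 (adjusted p = 0.0434). At 3 weeks the levels were 5.92, 5.52, 5.34 and 5.87 in Npc1-/- mice, against 4.79, 4.91, 4.73 and 4.91 in Npc1+/+ mice. All 4 Npc1-/- mice lay above all 4 littermates (0.83 ± 0.14, adjusted p = 4.38e-05), and the call held without the 2 mice with pancreas transcripts (0.84, adjusted p = 0.00154). All 4 Npc1+/+ mice and 2 of the Npc1-/- mice lay under 5.54, so the size of this difference is not read. From 5 weeks on Epb42 was low in both genotypes, with group means of 4.64 to 4.86 in Npc1-/- liver and 4.56 to 4.64 in Npc1+/+ liver. It exceeded the level of 5.54 on 10 arrays only, all of them of 1 or 3 weeks, so the later ages give no reading of a difference between genotypes.

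Ermap encodes a membrane protein of erythroblasts that carries the Scianna blood group in humans. Its level at 1 week was 7.58, 7.06, 7.90 and 7.32 in Npc1-/- mice and 7.01, 6.86, 6.89 and 7.30 in Npc1+/+ mice, with overlap. The difference of 0.45 ± 0.13 passed the threshold (adjusted p = 0.0237), but leaving out 1 mouse at a time ended the call for 4 of the 8 mice, Npc1-/- mouse 3 among them (0.30, adjusted p = 0.203). It did not pass with only these groups in the fit (adjusted p = 0.13) or without the 2 Npc1+/+ mice whose original names are numbered apart from the rest (adjusted p = 0.059). At 3 weeks Ermap averaged 6.38 ± 0.34 in Npc1-/- mice and 6.00 ± 0.12 in Npc1+/+ mice, a difference of 0.37 ± 0.13 (adjusted p = 0.0372). This call was lost for 4 of the 8 mice left out in turn, with adjusted p of 0.252 without Npc1-/- mouse 4, and without the 2 mice with pancreas transcripts (0.28, adjusted p = 0.329). It was also lost without a filter on low values (adjusted p = 0.0534), with quantile normalization (adjusted p = 0.061) and with only these groups in the fit (adjusted p = 0.105). At later ages the group means were 5.84 to 5.96 in Npc1-/- liver and 5.83 to 6.06 in Npc1+/+ liver, and no difference passed.

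Car2 encodes carbonic anhydrase 2, the fast isoenzyme of the red cell, which other tissues make as well. At 1 week it was 9.29, 9.43, 9.81 and 9.33 in Npc1-/- mice and 9.57, 9.05, 9.28 and 9.51 in Npc1+/+ mice, with overlap (difference 0.11 ± 0.16, adjusted p = 0.814). At 3 weeks it was 7.74, 7.66, 7.95 and 8.54 in Npc1-/- mice, against 7.09, 7.30, 6.83 and 6.99 in Npc1+/+ mice. At that age the groups did not overlap, and Car2 was higher in Npc1-/- liver by 0.92 ± 0.16, or 1.89-fold (adjusted p = 4.46e-05, and adjusted p = 0.000238 without the 2 mice with pancreas transcripts). At 5 weeks the levels were 7.17, 7.11, 7.64 and 7.06 in Npc1-/- mice and 6.37, 6.53, 6.53 and 6.41 in Npc1+/+ mice, again apart (0.79 ± 0.16, adjusted p = 0.000384). The groups overlapped at 7 weeks (0.25 ± 0.16, adjusted p = 0.293). The difference was 0.56 ± 0.16 at 9 weeks (adjusted p = 0.00573, with overlap, and adjusted p = 0.0504 without Npc1+/+ mouse 1) and 0.56 ± 0.16 at 11 weeks (adjusted p = 0.00456, without overlap). Unlike Slc4a1 and Epb42, Car2 thus passed the threshold at 3, 5, 9 and 11 weeks.

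Car1, carbonic anhydrase 1, was the 1 member that rose between 1 and 3 weeks in Npc1+/+ liver, and it was lower in Npc1-/- liver at each age from 3 weeks on. Its level in Npc1-/- mice averaged 6.73 ± 0.26 at 1 week, 7.08 ± 0.18 at 3 weeks and 7.73 ± 0.21 at 5 weeks (SD, n = 4 each). In Npc1+/+ mice it averaged 7.01 ± 0.13, 8.09 ± 0.11 and 8.63 ± 0.19 at the same 3 ages, and then lay between 8.40 and 8.81. The difference at 1 week did not pass (-0.28 ± 0.16, adjusted p = 0.354), and at each of the 5 later ages every Npc1-/- mouse lay below every Npc1+/+ littermate. The differences were -1.01 ± 0.16 at 3 weeks (adjusted p = 5.7e-06), -0.89 ± 0.16 at 5 weeks (adjusted p = 3.94e-05), -0.81 ± 0.16 at 7 weeks (adjusted p = 6.68e-05) and -1.13 ± 0.16 at 9 weeks (adjusted p = 1.36e-07). At 11 weeks it was 7.34, 6.59, 6.68 and 6.01 in Npc1-/- mice, against 8.88, 8.75, 8.42 and 8.59 in Npc1+/+ mice. This gap of -2.00 ± 0.16 was 4.01-fold (adjusted p = 1.34e-14) and the largest of the 6 ages. While Car1 rose in Npc1+/+ liver, the mean of Rhag there fell from 6.26 at 1 week to a low 3.46 at 3 weeks. Which cells made Car1 was not tested.

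Alas2 encodes the erythroid form of 5-aminolevulinate synthase, the first enzyme of haem synthesis. Unlike the membrane genes it was not lower at 3 weeks than at 1 week. At 1 week it averaged 9.13 ± 0.17 in Npc1-/- mice and 8.96 ± 0.15 in Npc1+/+ mice, at 3 weeks 9.61 ± 0.48 in Npc1-/- mice and 9.17 ± 0.37 in Npc1+/+ mice, and at 5 weeks 8.51 ± 0.41 in Npc1-/- mice and 8.61 ± 0.41 in Npc1+/+ mice (SD, n = 4 each). None of these 3 differences passed (adjusted p = 0.804, 0.204 and 0.849). At 7 weeks the levels were 7.05, 7.39, 7.26 and 7.17 in Npc1-/- mice and 7.93, 8.68, 8.33 and 8.43 in Npc1+/+ mice. At 11 weeks they were 7.26, 6.75, 7.01 and 5.80 in Npc1-/- mice and 8.47, 8.38, 8.49 and 8.40 in Npc1+/+ mice. No Npc1-/- mouse reached the lowest littermate at 7, 9 or 11 weeks, and the differences were -1.13 ± 0.23 (2.18-fold, adjusted p = 0.000205), -1.25 ± 0.23 (2.37-fold, adjusted p = 3.93e-05) and -1.73 ± 0.23 (3.32-fold, adjusted p = 4.79e-08).

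Klf1 encodes the erythroid Krüppel-like factor, which switches on globin and membrane skeleton genes. Its group means ran between 5.28 and 6.11, around the level of 5.54, which it exceeded on 36 of the 78 arrays. In 1-week liver it averaged 6.11 ± 0.10 in Npc1-/- mice and 5.96 ± 0.24 in Npc1+/+ mice (adjusted p = 0.576), and in 3-week liver 5.67 ± 0.19 in Npc1-/- mice and 5.44 ± 0.18 in Npc1+/+ mice (adjusted p = 0.174). The 1 difference past the threshold was at 9 weeks, where Npc1-/- mice had 5.40, 5.40, 5.37 and 5.50 and Npc1+/+ mice 5.83, 5.68, 5.85 and 5.68. These groups did not overlap (-0.34 ± 0.11, adjusted p = 0.0177), but without Npc1+/+ mouse 3 the adjusted p was 0.0548, and at 7 and 11 weeks nothing passed. Every Npc1-/- mouse of 9 weeks lay under 5.54, so the size of the 9-week difference is not read.

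**Figure D2:**
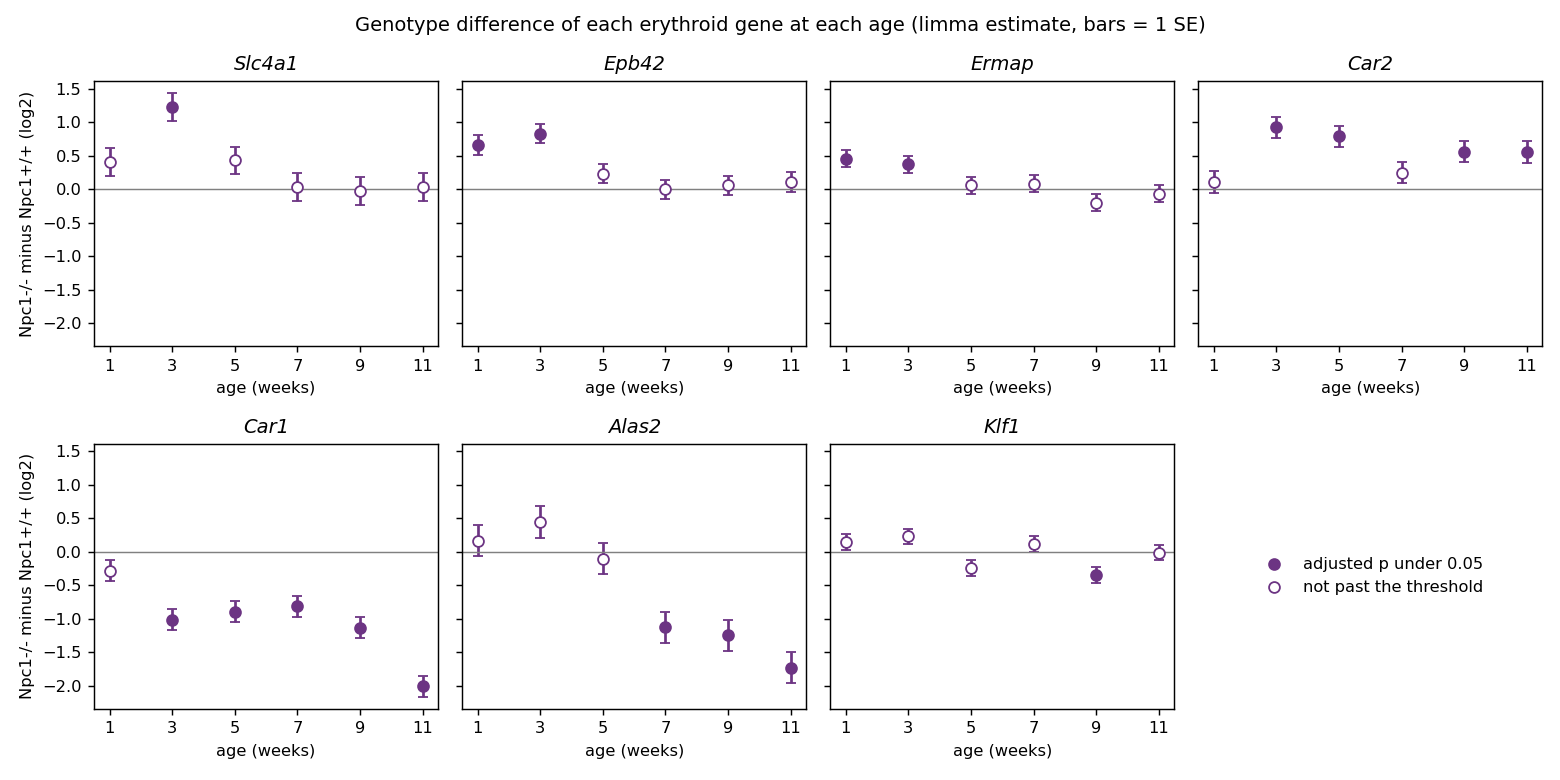
Difference between Npc1-/- and Npc1+/+ liver (y axis, log2, with bars of 1 SE from the fit) for each of the 7 genes at each age in weeks (x axis), filled where the adjusted p was under 0.05. Slc4a1 and Car2 are highest at 3 weeks, at 1.23 and 0.92, and Car1 and Alas2 reach -2.00 and -1.73 at 11 weeks.

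The change with age itself was large between 1 and 3 weeks. In Npc1-/- liver 5 of the 7 genes fell over this interval (25.8% of all genes tested passed, 11% up and 14.8% down). In Npc1+/+ liver 5 fell and 1, Car1, rose by 1.07 ± 0.16 (36.9% of all genes, 15.4% up and 21.5% down). The change of Slc4a1 was -1.67 ± 0.21 in Npc1-/- liver and -2.49 ± 0.21 in Npc1+/+ liver, and that of Car2 was -1.49 ± 0.16 in Npc1-/- liver and -2.30 ± 0.16 in Npc1+/+ liver. Epb42 (-0.99 in Npc1-/- and -1.16 in Npc1+/+ liver), Ermap (-1.09 in Npc1-/- and -1.01 in Npc1+/+ liver) and Klf1 (-0.44 in Npc1-/- and -0.52 in Npc1+/+ liver) fell in both as well. Epb42 reached means of 5.66 in Npc1-/- and 4.83 in Npc1+/+ liver of 3 weeks, with mice under 5.54 in both. The sizes of its falls, here and between 3 and 5 weeks, are not read. Klf1 reached means of 5.67 in Npc1-/- and 5.44 in Npc1+/+ liver of 3 weeks, again with mice under 5.54 in both. The sizes of its falls are likewise not read. Between 3 and 5 weeks all 7 genes changed in Npc1-/- liver, 6 of them down and Car1 up (5.25% of all genes, 3.35% up and 1.9% down), against 2 in Npc1+/+ liver, Car2 down and Car1 up (6.55%, with 2.82% up and 3.73% down). The call of Klf1 in Npc1-/- liver was lost for 5 of the 8 mice left out in turn (adjusted p between 0.066 and 0.143), and that of Ermap for 1 of 8, mouse 4 of 3 weeks (adjusted p = 0.106). In that interval Slc4a1 fell by 1.41 ± 0.21 in Npc1-/- liver (adjusted p = 5.27e-06), and its difference in Npc1+/+ liver was -0.61 ± 0.21 (adjusted p = 0.0666). The calls of Car1 and Car2 in Npc1+/+ liver did not hold without the 2 mice with pancreas transcripts (adjusted p = 0.0656 and 0.223), and single mice left out in turn ended them for 4 and 2 of the 8 mice. The 3-week mice enter both intervals, so the changes over these intervals are not independent.

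Between 5 and 11 weeks 4 of the 7 genes fell in Npc1-/- liver (25.3% of all genes, 12.9% up and 12.5% down), Alas2 by 1.80 ± 0.23, Car1 by 1.08 ± 0.16, Car2 by 0.69 ± 0.16 and Slc4a1 by 0.68 ± 0.21. Without Npc1-/- mouse 3 of 5 weeks the adjusted p of Slc4a1 was 0.0867. In Npc1+/+ liver limma called 0 of the 7 genes over the same interval, where 0.19% of all genes passed (0.103% up and 0.087% down) and 1 member, Car2, had an unadjusted p under 0.05. The difference between the genotypes' changes passed for Car1 (-1.11 ± 0.22, adjusted p = 0.000218) and Alas2 (-1.63 ± 0.33, adjusted p = 0.000305) between 5 and 11 weeks, where 16.1% of all genes passed (6.72% upward and 9.34% downward). Between 1 and 3 weeks it passed for Car2 alone (0.81 ± 0.23, adjusted p = 0.047, where 2.01% of all genes passed, 1.53% upward and 0.483% downward), and leaving out 1 mouse at a time ended this call for 11 of the 16 mice. Between 3 and 5 weeks limma called 0 members (0.799% of all genes, 0.57% upward and 0.229% downward), with Slc4a1 (-0.80 ± 0.29, adjusted p = 0.211), Epb42 and Klf1 at an unadjusted p under 0.05. Over all 6 ages together the genotype difference varied with age for each of the 7 genes (limma F test, adjusted p between 8.74e-07 for Alas2 and 0.0296 for Car2), as it did for 27.7% of all genes tested. This call was lost for Ermap without the 2 mice with pancreas transcripts (adjusted p = 0.0563), and for Car2 without the 2 mice named apart (adjusted p = 0.079) and for 5 of the 48 mice left out in turn. For Epb42, low in both genotypes from 5 weeks on, the F test sets 1 and 3 weeks against ages that give no reading.

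Beyond the 7 genes, other parts of the erythroid membrane moved alongside them early. Of 12 further membrane and cytoskeleton genes tested, 4 were higher and 0 lower in Npc1-/- liver at 1 week, with a median difference of 0.32 against -0.01 over all genes. They were Cldn13 (0.94 ± 0.21, adjusted p = 0.00275), a claudin of mouse erythroid tissue, Rhd (0.56 ± 0.17), Ank1 (0.52 ± 0.12), which encodes the ankyrin that anchors band 3, and Sptb (0.47 ± 0.11), the erythroid beta-spectrin. Without Npc1-/- mouse 3 of 1 week 1 of the 12 was higher, Cldn13 (0.82, adjusted p = 0.0233). At 3 weeks 4 were higher and 1 lower, with Rhag (1.06 ± 0.18, adjusted p = 4.17e-05), Cldn13 (0.76 ± 0.21), Rhd (0.57 ± 0.17) and Kel, of the Kell blood group (0.54 ± 0.14), as the higher ones, and Aqp1, a water channel that other cells make too, as the lower one (-0.37 ± 0.11). The means of Rhag, Cldn13, Rhd and Kel at 3 weeks lay under 5.54 in both genotypes, so the sizes of these 4 differences are not read. Without the 2 mice with pancreas transcripts the 4 remained higher and Aqp1 did not pass (adjusted p = 0.3). Of 16 genes of late erythroid cells and reticulocytes, 5 were higher and 1 was lower at 3 weeks. The higher ones included Trim10 (0.62 ± 0.15) and Hemgn, which encodes hemogen (0.51 ± 0.16). The means of Hemgn lay under 5.54, at 5.43 in Npc1-/- and 4.92 in Npc1+/+ liver, so the size of its difference is not read. Without the 2 mice with pancreas transcripts 4 of the 16 were higher and 1 was lower. In this list the antioxidant gene Prdx2 was higher by 0.40 ± 0.09 at 1 week and 0.44 ± 0.09 at 3 weeks. Of 15 transcription factor and receptor genes, Lmo2 (0.34 ± 0.10) and Gata1 (0.29 ± 0.10) were higher at 3 weeks, but neither passed without the 2 mice with pancreas transcripts (adjusted p = 0.26 and 0.19). Gata1 also lay under 5.54, at means of 5.45 in Npc1-/- and 5.16 in Npc1+/+ liver, so its size is not read. At 5 weeks 0 of the 12 membrane genes and 0 of the 16 late genes passed.

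Of 14 haem synthesis genes tested, 1 was lower in Npc1-/- liver at each of 1, 3 and 5 weeks, and the calls at 1 and 3 weeks were lost without the mice with muscle and pancreas transcripts. The number lower was 4 at 7 weeks, where 11% of all genes were lower, 7 at 9 weeks (15.5% of all genes) and 11 at 11 weeks (20.5%), where 1 was higher. The share of all genes called lower thus grew over the same ages. Their median difference at 11 weeks was -0.44, against -0.02 over all genes. The largest at that age were Uros (-0.74 ± 0.11), Alad (-0.66 ± 0.11), Abcb6 (-0.64 ± 0.12), a porphyrin transporter, and Cpox (-0.64 ± 0.12), and hepatocytes use these enzymes too. Alas1, the form of the first enzyme that all tissues use, was lower by 1.47 ± 0.32 at 5 weeks. Among 5 genes of iron uptake, Tfrc, the transferrin receptor, was higher in Npc1-/- liver at 7 weeks (1.12 ± 0.29), 9 weeks (0.96 ± 0.29) and 11 weeks (1.75 ± 0.29), and Tfr2, its liver-enriched relative, was lower at all 6 ages, between -0.23 at 3 weeks and -0.80 at 11 weeks. The call of Tfr2 at 3 weeks was lost without the 2 mice with pancreas transcripts. Of 2 globin genes tested, Hba-x, the embryonic zeta chain, was lower at 9 weeks (-0.45 ± 0.10) at a low level in both genotypes.

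**Figure D3:**
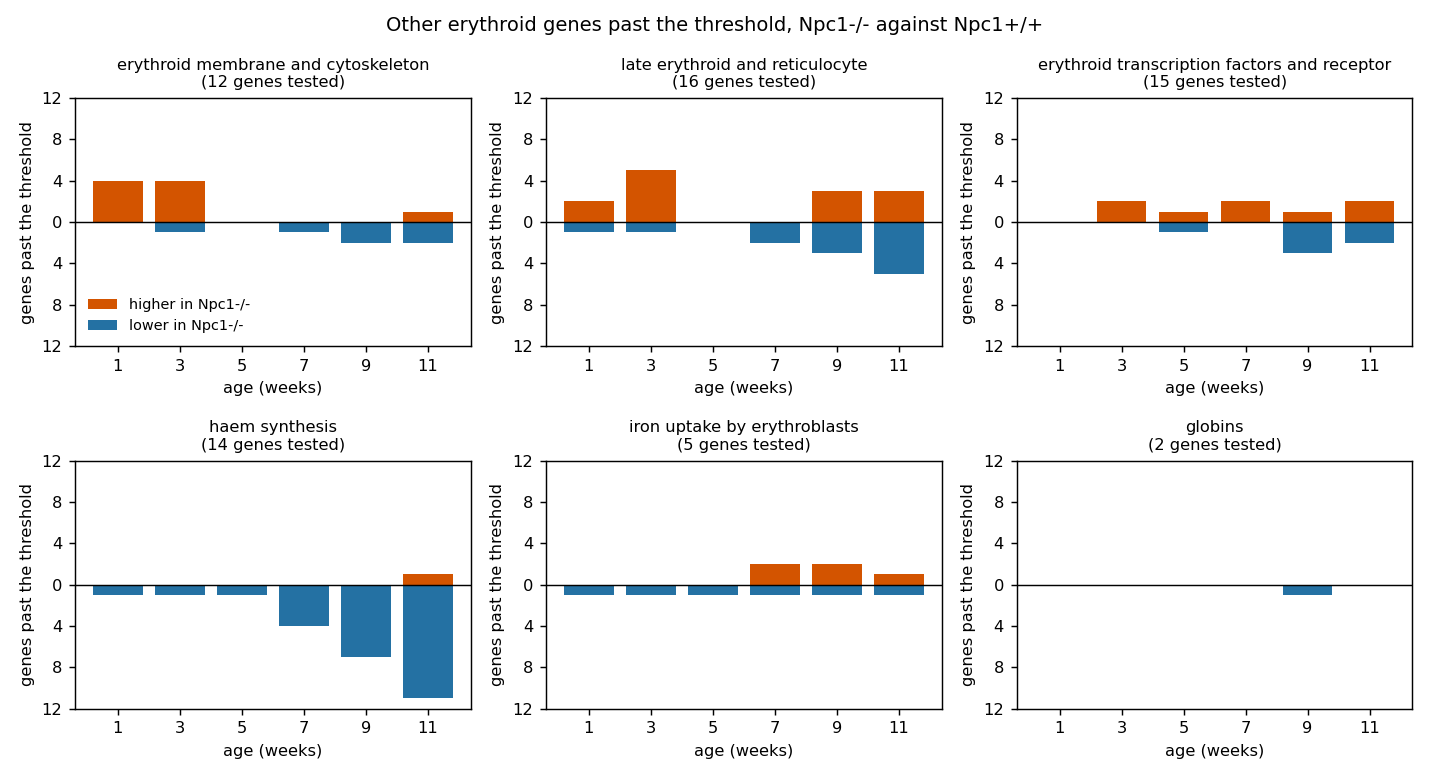
Number of genes in 6 erythroid lists (y axis, upward for higher and downward for lower in Npc1-/- liver, adjusted p under 0.05) at each age in weeks (x axis). Membrane genes reach 4 higher at 1 and 3 weeks, late erythroid genes 5 higher at 3 weeks, and haem synthesis genes 11 lower at 11 weeks.

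Between 1 and 3 weeks some of these lists fell and others did not. In Npc1-/- liver 9 of 12 membrane genes and 10 of 15 transcription factor genes fell (14.8% of all genes). In Npc1+/+ liver 9 of 12 and 9 of 15 did (21.5%). Without the mouse with muscle transcripts 9 and 8 fell in Npc1-/- liver. Without the 2 mice with pancreas transcripts 8 and 7 fell in Npc1+/+ liver. Of 16 late erythroid genes 2 rose and 5 fell in Npc1-/- liver, and 2 rose and 9 fell in Npc1+/+ liver. Of 14 haem synthesis genes 2 rose and 3 fell in Npc1-/- liver, and 4 rose and 3 fell in Npc1+/+ liver. In either genotype 1 transcription factor gene rose and 0 of 2 globin genes changed. The mean level of the 5 globin genes measured lay between 4.28 (untreated mice) and 4.48 (9-week Npc1+/+ mice) by group, under 5.54. Hba-a1 and Hbb-b1 were not among the genes measured, so the globin list gives no reading of their course. The change of Rhag was -2.03 ± 0.18 in Npc1-/- liver and -2.80 ± 0.18 in Npc1+/+ liver, and that of Epor, the erythropoietin receptor, -0.68 ± 0.13 in Npc1-/- liver and -0.74 ± 0.13 in Npc1+/+ liver. Rhag ended under 5.54, at means of 4.51 in Npc1-/- and 3.46 in Npc1+/+ liver, so the sizes of its changes are not read. Markers of other cells fell in the same interval: 16 of 16 cell cycle genes, 12 of 12 neutrophil precursor genes and 8 of 8 fetal hepatocyte genes in either genotype, and 7 of 9 megakaryocyte and platelet genes in Npc1-/- liver and 8 of 9 in Npc1+/+ liver. Of 13 general macrophage genes, 4 rose and 5 fell in Npc1-/- liver, and 0 rose and 11 fell in Npc1+/+ liver. Of 10 pancreas genes 0 changed in Npc1-/- liver and 7 rose in Npc1+/+ liver, and of 6 skeletal muscle genes 4 fell in Npc1-/- liver and 0 changed in Npc1+/+ liver. Without the 2 Npc1+/+ mice with pancreas transcripts 0 of 8 pancreas genes tested rose and 1 fell in Npc1+/+ liver. Without the Npc1-/- mouse with muscle transcripts 0 of 6 skeletal muscle genes fell in Npc1-/- liver. The part of these cells in the fall of the erythroid genes was not tested. Between 3 and 5 weeks in Npc1-/- liver 5 membrane genes fell further and 1 rose, with Rhag (-1.15 ± 0.18), Cldn13 (-0.95 ± 0.21), Rhd (-0.66 ± 0.17) and Kel (-0.56 ± 0.14) among those that fell. The means of these 4 genes lay under 5.54 already at 3 weeks, so the sizes of their falls are not read. The median change of the 12 membrane genes between 1 and 3 weeks was -0.97 in Npc1-/- liver and -0.63 in Npc1+/+ liver, against -0.03 over all genes in either. For the difference between the genotypes' changes limma called 0 of these 12 genes. Its median over them was -0.08, against 0.005 over all genes, so the medians show no steeper fall in either genotype.

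Markers of other cell types moved with genotype as well. Their counts stand beside shares of all genes called higher that ran between 2.91% (1 week) and 18.8% (11 weeks), and called lower between 2.78% (1 week) and 20.5% (11 weeks). Of 13 general macrophage genes, 2 were higher and 1 lower in Npc1-/- liver at 1 week. The number higher was 8 at the next age, then 7 and 12, and all 13 were higher from 9 weeks on. Their mean level at 3 weeks was 7.61 to 7.93 in Npc1-/- mice against 6.74 to 7.06 in Npc1+/+ mice. Of 10 genes of the macrophages that nurse erythroblasts, counted without Klf1, 6 were higher and 1 lower at 3 weeks. Without the mice with pancreas transcripts 5 were higher and 1 lower. The mean level of the 10 genes at that age was 7.58 to 7.74 in Npc1-/- mice against 7.22 to 7.47 in Npc1+/+ mice. The other ages gave like counts. At 1 week 4 of these genes were higher and 1 lower (3 and 1 without the mouse with muscle transcripts). At 5 weeks 7 were higher and 2 lower, at 7 and at 9 weeks 6 and 1, and at 11 weeks 7 and 1. Cell cycle genes were higher in 2 of 16 cases at 1 week (1 without the mouse with muscle transcripts). They were higher in 5 at 3 weeks (2 without the mice with pancreas transcripts) and in 7 at 5 weeks. Their mean level at 3 weeks was 5.90 to 6.49 in Npc1-/- mice and 5.85 to 5.99 in Npc1+/+ mice. Neutrophil precursor genes were lower in 4 of 12 cases at 1 week and higher in 10 of 12 at 11 weeks. Of 9 megakaryocyte and platelet genes, 1 was higher at 1 week, 3 at 3 weeks and 2 at 5 weeks. The number higher was 3 at 7 weeks, 2 at 9 weeks and 4 at 11 weeks, with 0 lower at each age. Resident Kupffer cell genes were lower in 4 of 8 cases at 1 week and in 7 at 9 and at 11 weeks. The mean level of 8 hepatocyte genes stayed between 13.07 and 13.28 in Npc1-/- mice and between 13.06 and 13.40 in Npc1+/+ mice. The part of these cell types in the differences of the erythroid genes was not tested.

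**Figure D4:**
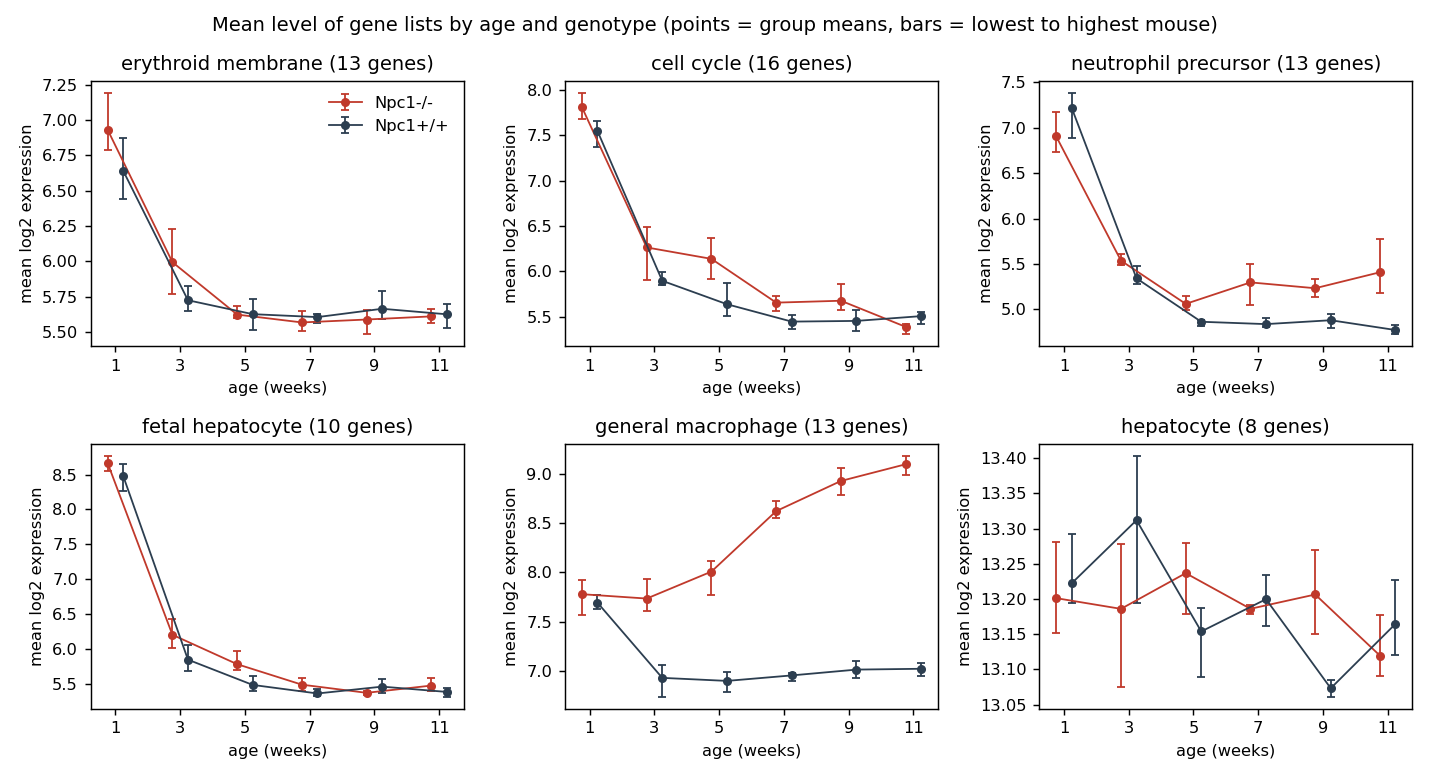
Mean log2 level of 6 gene lists (y axis, a scale per panel) at each age in weeks (x axis) in Npc1-/- and Npc1+/+ liver, with points at the group means and bars from the lowest to the highest mouse. The lists hold all measured genes, also those too low to be tested. The erythroid membrane, cell cycle, neutrophil precursor and fetal hepatocyte lists are highest at 1 week, and the general macrophage list reaches 8.99 to 9.18 in 11-week Npc1-/- liver against 6.96 to 7.09 in Npc1+/+ liver.

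In 12-week-old mice given the Npc1 oligo, Car1 was the 1 member that passed the threshold, and it was lower. With NAC, Car1 had 6.89, 7.20, 7.00, 6.21 and 6.71 in mice given the Npc1 oligo and 7.96, 7.88, 7.83, 7.66 and 7.42 in mice given the control oligo. Without NAC it had 7.12, 7.33, 7.45, 7.36 and 6.94 with the Npc1 oligo, against 8.87, 8.10, 8.78, 8.44 and 8.65 with the control oligo. The groups overlapped in neither comparison. The differences were -0.95 ± 0.16 with NAC (1.93-fold, adjusted p = 3.86e-05) and -1.33 ± 0.16 without (2.51-fold, adjusted p = 4.22e-07), and the difference between them did not pass (0.38 ± 0.23, adjusted p = 0.344). Car1 was thus 1 of 6 genes lower in each comparison. Of the 11900 genes tested, 25.7% passed with NAC (11% higher and 14.7% lower) and 22.6% without (14.7% higher and 7.88% lower). Epb42, low in all 6 groups (means of 4.44 to 4.64), was not tested here.

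Other erythroid lists moved both ways with the Npc1 oligo. With NAC, 2 of 7 membrane genes were lower, Xk (-0.66 ± 0.07) and Slc2a1 (-0.40 ± 0.09), and of 14 haem synthesis genes 2 were higher and 5 lower, with Ppox (-0.39 ± 0.09) and Alad (-0.39 ± 0.07) the largest. Without NAC the lower membrane genes were Aqp1 (-0.28 ± 0.09) and Xk (-0.24 ± 0.07), and of the haem synthesis genes Cpox (0.28 ± 0.08) and Slc25a39 (0.23 ± 0.06) were higher and Alad was lower (-0.74 ± 0.07). Tfrc was higher by 0.90 ± 0.17 without NAC. Of 13 transcription factor genes 1 was higher and 2 were lower with NAC, against 0 higher and 2 lower without, and of 14 late erythroid genes 3 and 2 were lower. Macrophage markers were higher in the same comparisons, 7 of 12 general macrophage genes with NAC and 8 of 12 without, and 5 and 7 of the 10 genes of macrophages that nurse erythroblasts. The mean level of the general macrophage genes was 7.80 to 8.86 in mice given the Npc1 oligo with NAC against 7.70 to 8.13 with the control oligo and NAC, and 8.17 to 8.63 against 7.59 to 7.85 without NAC. Of 6 fetal hepatocyte genes 3 were higher in either comparison, and of 5 neutrophil precursor genes 4 were lower with NAC and 0 without. The part of these cell types in the difference of Car1 was not tested.

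NAC also came with a lower Car1 in mice given the control oligo, by 0.82 ± 0.16 (adjusted p = 0.0016), without overlap and as 1 of 6 members (8.5% of all genes, 6.09% higher and 2.41% lower). That group is the one in which Npc1 was lower as well, and the part of Npc1 in this difference was not tested. With the Npc1 oligo, Car1 differed by -0.44 ± 0.16 between mice with and without NAC (adjusted p = 0.0951), and Car2 was the 1 member past the threshold (0.34 ± 0.11, adjusted p = 0.0463, where 7.15% of all genes passed, 2.88% higher and 4.27% lower). The groups of Car2 overlapped, with 6.16 to 6.52 in mice given NAC against 5.77 to 6.22 in mice not given it, and leaving out 1 mouse at a time ended the call for 6 of the 10 mice. For the difference between the oligo effects with and without NAC limma called 0 of 6 members (4.83% of all genes, 1.15% higher and 3.68% lower), with Alas2 and Car2 at an unadjusted p under 0.05. These 4 comparisons share groups of mice, so they are not independent of each other.

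Between the control oligo and untreated mice Alas2 was the 1 member past the threshold. It had 7.53, 6.84, 7.25, 6.84 and 7.05 in mice given the control oligo and 7.41, 7.80, 7.55, 7.84 and 7.75 in untreated mice, with overlap through control oligo mouse 1 and untreated mouse 1. Alas2 was lower with the control oligo by 0.57 ± 0.16 (1.48-fold, adjusted p = 0.00838), as 1 of 6 members where 26.3% of all genes passed (5.05% higher and 21.3% lower). Of the 14 haem synthesis genes 6 were lower as well, among them Ppox (-0.43 ± 0.09) and Fech, which inserts the iron (-0.31 ± 0.07). Of 7 membrane genes, by contrast, 4 were higher and 0 lower, with a median difference of 0.27 against -0.07 over all genes. Of 13 transcription factor genes 1 was higher and 4 were lower. Of 5 iron uptake genes 1 was higher, and of 14 late erythroid genes 2 were lower. In fasted against untreated mice limma called 0 of 6 members (0.529% of all genes, 0.21% higher and 0.319% lower), with Alas2 (-0.37 ± 0.16, adjusted p = 0.447) and Car1 (0.33 ± 0.16, adjusted p = 0.562) at an unadjusted p under 0.05.

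**Figure D5:**
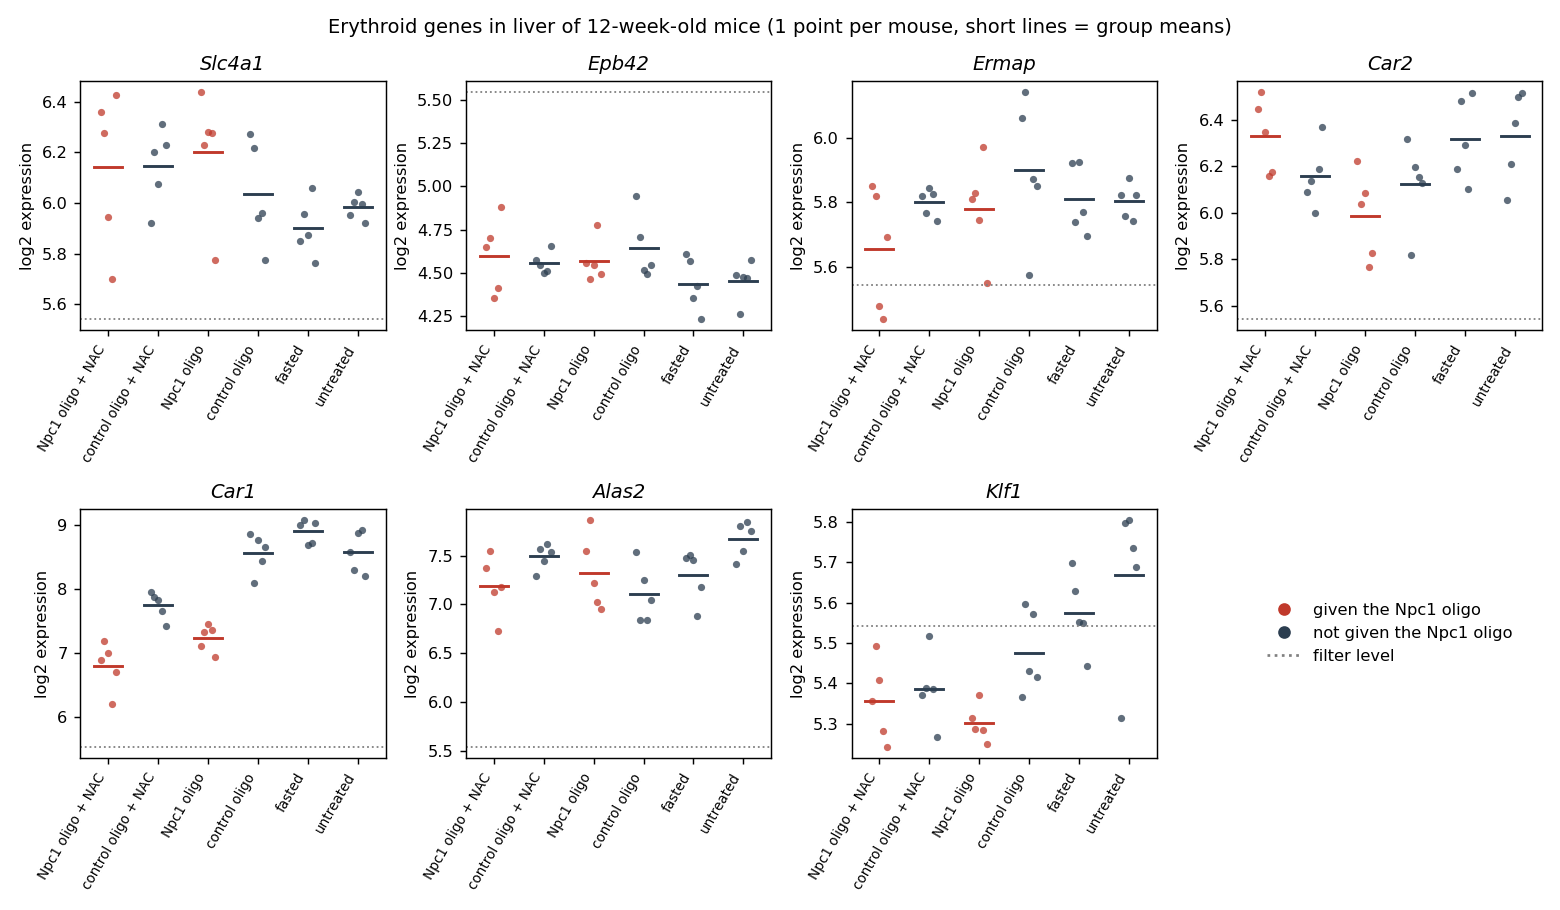
Log2 expression of the 7 genes (y axis, a scale per panel) in the 6 groups of 12-week-old mice (x axis), 1 point per mouse, with a short line at each group mean and a dotted line at 5.54. Car1 is the gene whose groups given the Npc1 oligo lie wholly below their control oligo groups, at 6.21 to 7.20 against 7.42 to 7.96 with NAC and at 6.94 to 7.45 against 8.10 to 8.87 without.

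Across the 18 groups Slc4a1, Epb42, Ermap, Car2 and Klf1 had their highest mean in 1-week Npc1-/- liver and the next highest in 1-week Npc1+/+ liver. For Slc4a1 and Car2 the third was 3-week Npc1-/- liver, and of the 17 steps between neighbours in the order all overlapped for Slc4a1 except those on either side of this group. Car2 had 14 of 17 neighbouring pairs overlapping, Epb42 15, Ermap 16 and Klf1 17. Alas2 was highest in 3-week Npc1-/- liver (9.61) and lowest in 11-week Npc1-/- liver (6.70), and its 1 gap without overlap, between ranks 9 and 10, lay between 7-week Npc1+/+ liver (8.34) and untreated 12-week liver (7.67). Car1 was highest in fasted mice (8.90) and lowest in 11-week Npc1-/- liver (6.66), with 1-week Npc1-/- liver next to it (6.73). The scaling of the 12-week set to the age series is not stated, so levels of the 2 sets are set side by side with no test.

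The likeness among members was described by Pearson's r over the 18 group means, points that share the arrays and the strong 1-week groups. Slc4a1 ran with Epb42 (0.99), Car2 (0.98) and Ermap (0.96), less closely with Klf1 (0.76) and Alas2 (0.68), and opposite to Car1 (-0.54). Over 12741 genes, the one most like Slc4a1 was Trim10 (0.99), most like Epb42 was Cldn13 (0.98), and most like Ermap was Rhd (0.98), and all 3 encode proteins of erythroid cells. Alas2 was most like Tent5c (0.93), Car2 most like Lamc1 (0.98), a laminin chain, Klf1 most like Chsy1 (0.89), and Car1 most like Scrn2 (0.94). The mean of the 7 members, each centred on its own mean, was most like Mmd2 (0.97), Ube2c (0.96), Cdc25b (0.96), Pax5 (0.96) and Adam12 (0.95), of which Ube2c and Cdc25b encode cell cycle proteins.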

How the data were processed

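Liver RNA of 78 mice was hybridised to Affymetrix arrays, 1 array per mouse. The deposited values are log2 expression per probe set, and RMA and Partek 6.5 are named for them per the submitters' processing notes, which give no role or order. Genome build and other settings are not given in the sources used here. The table held 35556 probe sets, and 21789 with 1 gene symbol gave 19938 genes, each as the probe set with the highest mean. Array medians lay between 5.35 and 5.65. Array intensities carry no read depth, so the number of mice limits the precision. The table held 0 columns of other series.

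The age series (48 arrays) and the 12-week set (30 arrays) were fitted separately with limma 3.58.1 in R 4.3.3 on group means, with empirical Bayes variances. Genes above the median of all values (5.54) on at least 4 arrays were kept, and p-values were adjusted over all of them by Benjamini-Hochberg within a comparison, called under 0.05. The scripts were tested on simulated data. The mice are labelled biological replicates. The members and lists were chosen with earlier results of these data known. Text names all members, up to 4 genes per erythroid list and comparison with the largest called differences, and the genes most like the members. Aqp1 is named beside its count and was chosen after its values were seen. Alternatives covered filter, scaling, array weights, prior, replicate block, single mice and mice with signal of other organs. Counts of the gene lists without the mice with signal of other organs were added after the data were seen.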

Additional observations from a re-analysis of the deposited data

Results flagged for a closer look

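Among 126 groups of 4 or 5 mice, 1 mouse stood apart in 2, where chance alone marks about 1 in 20. Slc4a1 had 6.80 in Npc1+/+ mouse 3 of 5 weeks, against 6.17 to 6.26 in the other 3. Klf1 had 5.31 in untreated mouse 1 of 12 weeks, against 5.69 to 5.80 in the other 4.

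The genotype difference varied over the 6 ages for each of the 7 members (limma F test). The adjusted p was 8.74e-07 for Alas2, 2.52e-06 for Car1, 0.00293 for Epb42, 0.00528 for Slc4a1, 0.0216 for Klf1, 0.0235 for Ermap and 0.0296 for Car2. Epb42 was low in both genotypes from 5 weeks on, so those ages give no reading of its difference. The change between ages differed between Npc1-/- and Npc1+/+ liver for Car2 from 1 to 3 weeks (0.81, adjusted p = 0.047), and for Car1 (-1.11, adjusted p = 0.000218) and Alas2 (-1.63, adjusted p = 0.000305) from 5 to 11 weeks.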

How the results depend on the processing

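Of 57 member calls, 42 were lost under no alternative in which the gene was tested. Of 3223 alternative values 0 turned a called direction, while 68 lost and 18 gained a call. Of 23 counts of members called, 15 stayed within 1.5 times under all alternatives. The count at 1 week (2) was 1 at an adjusted p under 0.01, 0 with only the groups compared and 1 without the 2 Npc1+/+ mice named apart, and 1 to 2 with single mice left out. At 3 weeks (5) it was 3 with only the groups compared, where Ermap did not pass and Epb42, too low on most of these arrays for the filter, was not tested. Between 3 and 5 weeks the count was 3 in Npc1-/- liver (7) with only the groups compared, where Epb42 and Klf1 were likewise not tested. In Npc1+/+ liver (2) it was 0 at 0.01 and 0 without the 2 mice with pancreas transcripts, and 0 to 3 with single mice left out. For the differing change from 1 to 3 weeks (1) it was 0 at 0.01, without a filter, with centred arrays and without the mice named apart, 2 with array weights, and 0 to 1 with single mice left out. The F test count (7) was 4 at 0.01. NAC with the Npc1 oligo (1) gave 0 at 0.01, without a filter, with centred arrays, with array weights and with only the groups compared, and 0 to 1 with single mice left out. The control oligo against untreated (1) gave 2 with centred arrays and with array weights, and 1 to 2 with single mice left out. The cause of these shifts was not tested beyond the fewer mice, the filter or the stricter threshold of the setting itself.

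Replicate numbers did not pair the mice: in 0 of 12 pairs of groups were all same-number correlations over 0.1 (range -0.329 to 0.284). With the replicate number as a block the counts were 0 for the differing change from 1 to 3 weeks, 0 for NAC with the Npc1 oligo and 2 for the control oligo against untreated, and no other count moved.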
